A study of Bos taurus with 10 samples.

Results

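The genes described here are 4 genes grouped under smooth muscle cells and pericytes, the contractile cells that wrap blood vessels: TAGLN, TPM1, MCAM and PLN. They were taken by current gene symbol from 4366 named bovine genes on a spotted cDNA array, where they occupy 5 of 5472 named elements (TAGLN on 2 clones, the others on 1 clone each). The rule names these genes by symbol and sets no threshold on their values, but they were picked with earlier results of these data known. The study measured RNA of liver, mammary gland and 3 adipose depots (subcutaneous, mesenteric and omental) from cattle (Bos taurus) at peak lactation, with no genotype or treatment and no age given in the labels. Each tissue was hybridised on 2 arrays against a reference standard made from a mixture of tissues, with the tissue in Cy3 on 1 array and in Cy5 on the other. The 2 arrays of a tissue are a dye swap of 1 RNA sample and count as 1 replicate, and the labels do not say how many animals gave the RNA. No spread between animals was therefore measured and no difference has a p-value.

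In contractile vascular cells, myosin pulls on actin filaments after a rise in cytosolic calcium, and calcium pumps then return the ion to the sarcoplasmic reticulum. TAGLN encodes transgelin (SM22), an actin-binding protein used as a marker of smooth muscle. TPM1 encodes a tropomyosin, a rod-shaped protein that lies along the actin filament and steadies it. MCAM (CD146) is an adhesion molecule of the cell surface carried by smooth muscle cells, pericytes and endothelial cells. PLN encodes phospholamban, which holds back the sarcoplasmic reticulum calcium pump until it is phosphorylated, and is best known from heart and smooth muscle. In adipose tissue these cells belong to the vessels and to the stroma around them, and in the mammary gland the myoepithelial cells that eject milk share much of the same contractile equipment.

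A level here is the log2 ratio of tissue to reference after each array was centred on its median, and a difference is the level of 1 tissue minus that of another. The value after ± is the distance from the mean to either dye orientation, which measures dye and array error only. A difference was counted as past the size rule where its mean was at least 1 log2 unit (2-fold) and both orientations lay on the same side of 0. The 5 comparisons below share tissues and are not independent of each other. The direction of the ratio is likely rather than stated, and with the opposite direction every difference would change sign. Which gene a spot stands for was worked out by rebuilding how the array was printed, so each value belongs to its gene only as far as that rebuilt order holds.

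The arrays had a value for 15970 to 16245 of 16416 spots, and all spots of the 4 genes were among them. After orientation the 2 arrays of a tissue correlated at 0.66 to 0.78 over all elements. The source name and the dye label of the omental Cy5 array name different dyes for the reference, and that pair correlated at 0.70. Hepatocyte markers had their highest median level in liver (3.67, against -1.45 to -1.01 in the other tissues, 3 genes measured), although APOA1, among them, was at 0.85 in liver and 1.86 in subcutaneous adipose. Milk-secreting epithelium markers had theirs in mammary gland (3.50, against -0.46 to 0.12 elsewhere, 8 genes). Among them, KRT8 (-1.64) and KRT18 (-2.16) were below the reference in mammary gland, and KRT18 was higher in liver (-1.07). The 6 adipocyte markers had a median level of 0.59 in liver and -0.07 in mammary gland, against -0.12 in subcutaneous adipose, 1.32 in mesenteric adipose and 1.58 in omental adipose, so the median of the subcutaneous sample did not stand above those of the non-adipose tissues. The liver median joined unlike genes. RBP4 (4.54), CEBPA (0.93) and PNPLA2 (0.85) lay above it in liver, and CIDEA (0.34), LIPE (-0.08) and CAV1 (-2.86) below it.

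TAGLN was high in visceral fat and low in liver and subcutaneous fat. Its level was -0.97 on the Cy3 array and -1.18 on the Cy5 array in liver, 0.29 and 0.24 in mammary gland, and -0.80 and -0.97 in subcutaneous adipose. In mesenteric adipose it was 0.92 and 0.81, and in omental adipose 0.95 and 0.87. The arrays of liver and subcutaneous fat were all below the reference and those of mammary gland and both visceral depots all above it, and the arrays of the 2 visceral depots overlapped. The mean levels ran from -1.07 ± 0.10 in liver through -0.88 ± 0.08 in subcutaneous adipose and 0.26 ± 0.03 in mammary gland to 0.86 ± 0.06 in mesenteric and 0.91 ± 0.04 in omental adipose. Each step in this order exceeded its dye error, but the step between the visceral depots was only 0.05 ± 0.02. The clone on plate 20 gave the mesenteric minus omental difference as -0.10 and the clone on plate 1 as 0.0018, so the order of these depots was not shared by the clones.

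TPM1 was below the reference on all 10 arrays and had its highest level in the mammary gland. Its level was -3.68 and -3.33 in liver, -0.80 and -1.14 in mammary gland, and -2.37 and -2.70 in subcutaneous adipose. It was -1.66 and -1.70 in mesenteric adipose and -1.30 and -1.28 in omental adipose. No pair of tissues overlapped in its array values. The order from the top was mammary gland (-0.97 ± 0.17), omental adipose (-1.29 ± 0.01), mesenteric adipose (-1.68 ± 0.02), subcutaneous adipose (-2.54 ± 0.17) and liver (-3.50 ± 0.18). The smallest step, mammary gland above omental adipose, was 0.32 ± 0.18.

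MCAM stood far above the reference in both visceral depots and within 1 log2 unit of it elsewhere. Its level was -0.66 and -0.45 in liver, 0.13 and 0.72 in mammary gland, and 0.94 and 0.88 in subcutaneous adipose. It was 3.10 and 3.68 in mesenteric adipose and 3.15 and 3.45 in omental adipose. The mean levels in mesenteric (3.39 ± 0.29) and omental adipose (3.30 ± 0.15) were 10.5-fold and 9.86-fold over the reference, and their difference of 0.09 ± 0.14 lay within the dye error. Subcutaneous adipose (0.91 ± 0.03) followed, then mammary gland (0.42 ± 0.29), then liver (-0.55 ± 0.10). The spread of MCAM over the tissues, 3.94 log2 units or 15.4-fold, was the 72nd widest among 4307 genes with a value on all arrays, whose median spread was 0.73.

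PLN was above the reference on all 10 arrays and was highest in mesenteric fat. Its level was 1.01 and 1.04 in liver, 0.48 and 0.55 in mammary gland, and 0.14 and 0.50 in subcutaneous adipose. It was 2.49 and 2.66 in mesenteric adipose and 1.11 and 1.54 in omental adipose. The mesenteric arrays lay apart from all others, while the subcutaneous and mammary arrays overlapped. From the top, the means were 2.57 ± 0.09 in mesenteric adipose, 1.32 ± 0.22 in omental adipose, 1.02 ± 0.01 in liver, 0.52 ± 0.04 in mammary gland and 0.32 ± 0.18 in subcutaneous adipose. The step from mammary gland to subcutaneous adipose was 0.20 ± 0.15. The spread over tissues was 2.25 for PLN, 2.53 for TPM1 and 1.98 for TAGLN, so the 4 genes ranked between 72nd and 469th of the 4307.

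**Figure D1:**
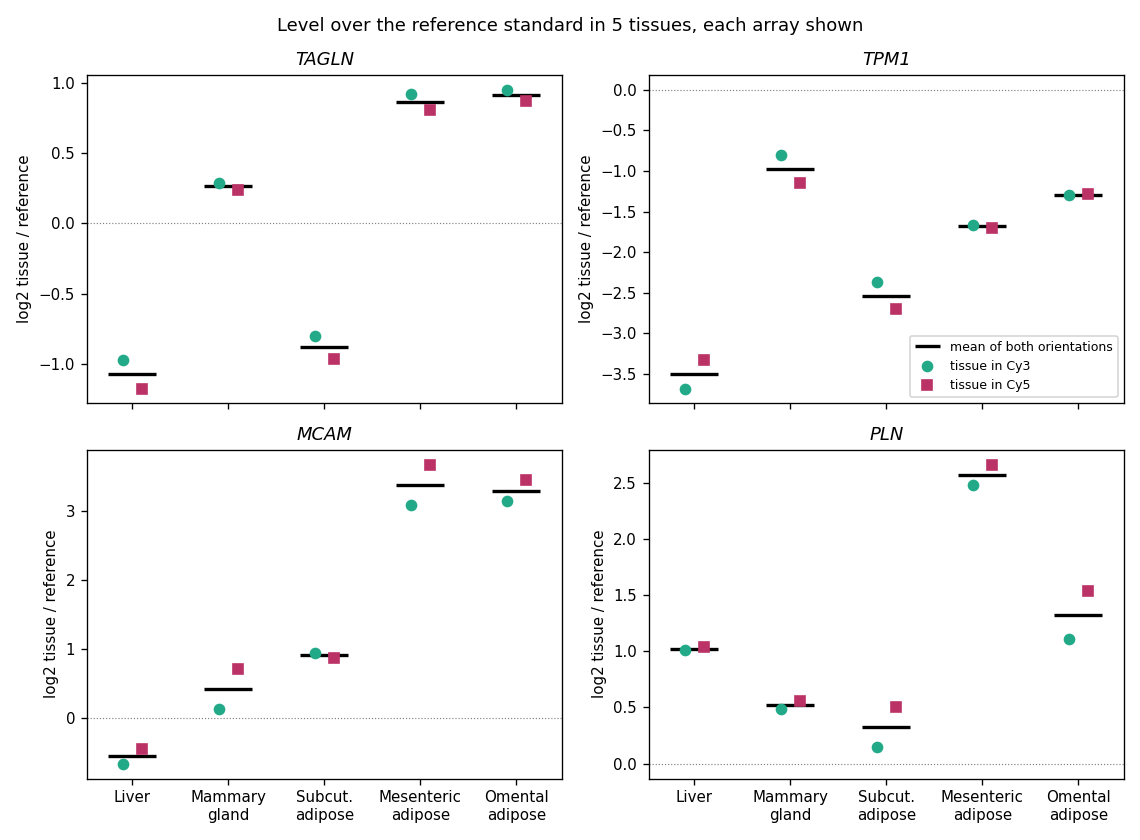
Level of TAGLN, TPM1, MCAM and PLN (vertical axes, log2 ratio of tissue to reference, each gene on its own scale) in liver, mammary gland and 3 adipose depots. Circles are arrays with the tissue in Cy3, squares arrays with the tissue in Cy5 and bars their mean; MCAM lies above 3 in both visceral depots, and PLN peaks at 2.57 in mesenteric adipose.

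Duplicate spots of an element on 1 array differed by a median of 0.08 for TAGLN, 0.06 for TPM1, 0.11 for MCAM and 0.10 for PLN, with a maximum of 0.51 for PLN. The 2 TAGLN clones, spotted from plates 1 and 20, were left out of the layout search and followed each other closely over the 5 tissue means (cosine 0.99). The clone on plate 20 was lower in subcutaneous than in visceral adipose by a difference of -1.97 ± 0.01, and the clone on plate 1 by -1.57 ± 0.06. In liver against mammary gland the clones gave -1.34 ± 0.14 and -1.34 ± 0.02. TPM1, MCAM and PLN rest on 1 clone each, on plates 13, 4 and 11, and have no such check. Other clone pairs on those plates had median cosines of 0.76, 0.78 and 0.74, against 0.38 on plate 1 and 0.86 on plate 20. The layout was chosen for the agreement of such pairs, so these cosines are not a separate check.

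Subcutaneous fat was set against the mean of the 2 visceral depots to ask how fat under the skin differs from fat in the abdomen. All 4 genes were lower in subcutaneous fat: 4 of 4 passed the size rule downward, where 3.72% of 4332 genes did so and 6.23% passed it upward; since earlier results were known when the genes were picked, this count is a description. MCAM had a level of 0.91 in subcutaneous and 3.35 in visceral adipose, a difference of -2.43 ± 0.25 (5.40-fold), and was the 10th lowest gene of all. TAGLN differed by -1.77 ± 0.03 (3.41-fold), PLN by -1.63 ± 0.03 (3.09-fold) and TPM1 by -1.05 ± 0.16 (2.07-fold). The members' median difference was -1.70, where that of all genes was 0.01. TPM1 was the weakest of these calls, since its Cy3 arrays alone gave -0.89. Without centring of the arrays the median of all genes moved to 0.64. Only TAGLN (-1.14) and MCAM (-1.81) then stayed past the rule, with PLN at -0.998 and TPM1 at -0.42. Centring shifts all genes of an array equally, so differences relative to the median of all genes cannot change and do not test these calls.

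In bulk tissue, fewer cells of a type and less RNA per cell cannot be told apart, which touches this and every later difference. Markers of several cell types moved in the same comparison. Of 11 endothelial markers measured out of 22, 6 were lower in subcutaneous fat (CDH5, KDR, TEK, ENG, AQP1 and LYVE1) and none was higher, with a median difference of -1.02. Their levels spanned 0.06 to 1.75 in subcutaneous adipose, against 0.38 to 2.91 in mesenteric and 0.23 to 2.47 in omental adipose. Of 6 adipocyte markers measured out of 14, 4 were lower (CAV1, RBP4, LIPE and PNPLA2; median -1.73). Of 11 myeloid markers measured out of 12, 8 were higher and C1QC was lower (median 2.66), led by S100A12 at 5.33 ± 0.09. Fibroblast and matrix markers (9 of 20 measured) went both ways (median -0.65). COL3A1 (-1.16 ± 0.35) and SPARC (-1.06 ± 0.12) were lower and VIM (1.10 ± 0.06) was higher. Without centring none of the 6 endothelial markers passed (-0.89 for CDH5 to -0.39 for ENG), nor did PNPLA2 (-0.89) or C1QC (-0.75). COL3A1 (-0.53) and SPARC (-0.43) did not pass then either. The part of these cell types in the lower values of TAGLN, TPM1, MCAM and PLN was not tested.

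Most other contractile genes did not pass in this comparison. Of 58 further genes of smooth muscle and pericyte contraction, 24 were measured; 3 were lower in subcutaneous fat, 1 was higher, and the median was -0.15. MYLK, the kinase that switches on smooth muscle myosin, differed by -1.74 ± 0.08. SMTN, smoothelin of contractile smooth muscle, differed by -1.10 ± 0.25. KCNJ8, a potassium channel subunit of vascular smooth muscle and pericytes, differed by -1.41 ± 0.04. ROCK2, a kinase that sustains contraction and is expressed in many cell types, was higher by 1.15 ± 0.17. The smooth muscle myosin heavy chain MYH11 (-0.31 ± 0.06), the enteric smooth muscle actin ACTG2 (0.80 ± 0.04) and desmin, DES (-0.89 ± 0.03), did not pass. Without centring SMTN (-0.47) and KCNJ8 (-0.78) no longer passed. Skeletal and heart muscle markers gave no call in any of the 5 comparisons, but only 3 of 23 were measured (DES, TCAP and MYOZ1).

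Liver was set against the mean of the 3 adipose depots. TAGLN, TPM1 and MCAM were lower in liver and PLN was not past the rule: 3 of 4 members passed downward, where 6.06% of 4326 genes did so and 7.28% passed upward. MCAM had a level of -0.55 in liver and 2.53 in adipose tissue, a difference of -3.09 ± 0.03 (8.50-fold), the 11th lowest of all genes. TPM1 differed by -1.67 ± 0.23 (3.17-fold) and TAGLN by -1.37 ± 0.04 (2.58-fold). PLN, at 1.02 in liver and 1.41 in adipose tissue, differed by -0.38 ± 0.15. The members' median was -1.52 and that of all genes -0.06. The adipose mean joins unlike depots: liver minus subcutaneous adipose was -0.19 ± 0.02 for TAGLN and -0.96 ± 0.34 for TPM1, while liver minus mesenteric adipose was -1.94 ± 0.05 and -1.82 ± 0.19 for the same genes. For PLN the depots gave opposite signs, with liver minus subcutaneous adipose at 0.70 ± 0.17 and liver minus mesenteric adipose at -1.55 ± 0.07. MCAM was lower in liver against each of the 3 depots, with differences of -1.47 ± 0.13 against subcutaneous, -3.94 ± 0.19 against mesenteric and -3.86 ± 0.05 against omental adipose.

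Other contractile genes were also on the low side in liver. Of the 24 measured, 7 were lower and none higher, 20 lay below 0, and the median was -0.61. The 7 were FLNA, an actin cross-linker (-2.17 ± 0.17), ANPEP, an aminopeptidase carried by pericytes and many epithelia (-1.78 ± 0.15), ACTG2 (-1.37 ± 0.02), TNS1, a focal adhesion protein (-1.34 ± 0.01), MYL6, a myosin light chain (-1.23 ± 0.06), PPP1R12A, the targeting subunit of myosin phosphatase (-1.09 ± 0.26), and MYH11 (-1.08 ± 0.10). MYH11 no longer passed under quantile normalisation (-0.80). All 9 measured fibroblast and matrix markers of 20 were lower in liver (median -3.24), with levels of -4.05 to -0.45 in liver and -0.92 to 3.30 over the adipose depots. Of the 11 endothelial markers, 2 were lower (median -0.35), and of the 11 myeloid markers 5 were lower and 3 higher (median -0.81). The 3 higher ones, CD14 (0.91), C1QB (0.53) and C1QC (0.48), did not pass under quantile normalisation. Without centring C1QB (0.89) and C1QC (0.82) did not pass either. The fibroblast and matrix marker TIMP3 did not pass under quantile normalisation (-0.83). The part of fibroblast, endothelial and myeloid RNA in these differences was not tested.

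Mammary gland against the adipose mean separated the members. MCAM was lower in the gland, and the other 3 did not pass: 1 of 4 passed downward, where 6.72% of 4313 genes did so and 2.88% passed upward. MCAM had a level of 0.42 in mammary gland and 2.53 in adipose tissue, a difference of -2.11 ± 0.16 (4.32-fold), the 33rd lowest of all genes. TAGLN had 0.26 in mammary gland and 0.30 in adipose tissue, a difference of -0.03 ± 0.03. TPM1 differed by 0.86 ± 0.11 and PLN by -0.89 ± 0.13, so these genes lay on opposite sides of 0. Both came close to the rule: under quantile normalisation TPM1 passed upward (1.23) and PLN downward (-1.002), and PLN also passed on the Cy5 arrays alone (-1.01) and against the visceral depots only (-1.43). MCAM differed mainly from the visceral depots: mammary gland minus mesenteric adipose was -2.96 ± 0.0047 and minus omental adipose -2.88 ± 0.14, while mammary gland minus subcutaneous adipose was -0.49 ± 0.32 and not past the rule. Mammary gland minus subcutaneous adipose was 1.56 ± 0.0048 for TPM1 and 1.15 ± 0.06 for TAGLN, against 0.32 ± 0.18 and -0.65 ± 0.01 for mammary gland minus omental adipose.

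None of the 24 other contractile genes passed in this comparison, although 23 lay below 0, between -0.96 for ANPEP and 0.35 for MYL9 (median -0.59, median of all genes -0.05). MYL9, the light chain that MYLK phosphorylates, was the gene above 0. Of 8 markers of myoepithelial cells, MYLK was the only one measured, at -0.15 ± 0.08, so the share of these cells in the mammary TPM1 and TAGLN values was not tested. Of the 9 fibroblast and matrix markers, 8 were lower in mammary gland than in adipose tissue (median -2.21). In the same comparison 10 of 11 myeloid markers were lower (median -1.93), 3 of 6 adipocyte markers were lower (median -1.08), 1 of 11 endothelial markers was lower (LYVE1, median of the list -0.57) and 7 of 8 milk-secreting epithelium markers were higher (median 3.10). The part of these cell types in the MCAM difference was not tested.

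Liver against mammary gland gave the widest gap of TPM1. TPM1 and TAGLN were lower in liver: 2 of 4 members passed downward, where 4.44% of 4325 genes did so and 9.34% passed upward. TPM1 had a level of -3.50 in liver and -0.97 in mammary gland, a difference of -2.53 ± 0.35 (5.77-fold), the 15th lowest of all genes. TAGLN differed by -1.34 ± 0.08 (2.53-fold). MCAM, at -0.98 ± 0.19, lay just inside the rule and passed without centring (-1.19) and on the Cy5 arrays alone (-1.17). PLN was 0.50 ± 0.02, below the rule, and was the member with a higher level in liver. The members' median was -1.16 and that of all genes -0.01. Of the 24 other contractile genes, FLNA was lower (-1.67 ± 0.08) and CRIP1, a small LIM-domain protein, was higher (1.63 ± 0.24), with a median of -0.16. Of the cell type markers, 4 of 9 fibroblast and matrix genes were lower in liver (COL6A1, DCN, MMP2 and VIM; median -0.78), 6 of 8 milk-secreting epithelium genes were lower and 1 was higher (median -2.85), 6 of 11 myeloid genes were higher (median 1.13), and 1 of 11 endothelial genes was higher (LYVE1, median 0.02). KRT18, the higher epithelial gene, passed neither without centring (0.88) nor under quantile normalisation (0.89). The same held for AIF1, a myeloid gene (0.92 and 0.91). VSIG4, another myeloid gene, did not pass under quantile normalisation (0.99). The part of these cell types in the TPM1 and TAGLN differences was not tested.

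Within visceral fat, PLN alone of the members separated mesenteric from omental adipose: 1 of 4 passed upward, where 0.829% of 4340 genes did so and 0.576% passed downward. PLN had a level of 2.57 in mesenteric and 1.32 in omental adipose, a difference of 1.25 ± 0.13 (2.38-fold), the 24th highest of all genes. The Cy3 arrays gave 1.38 and the Cy5 arrays 1.12. Without centring, where the median of all genes moved to -0.33, PLN was short of the rule at 0.94. TPM1 differed by -0.39 ± 0.03, MCAM by 0.09 ± 0.14 and TAGLN by -0.05 ± 0.02. None of the 24 other contractile genes passed (median 0.08), with KCNJ8 at 0.51 ± 0.03 the highest and DES at 0.49 ± 0.01 next to it. Some cell type markers did pass. The adipocyte marker LIPE was higher in mesenteric fat (1.14 ± 0.40, list median -0.44), but not past the rule without centring (0.83). KRT19, listed for milk-secreting epithelium and for mesothelium, was higher (1.72). The endothelial marker FLT1 was lower (-1.49 ± 1.16, list median 0.21). The part of these cell types in the PLN difference was not tested.

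**Figure D2:**
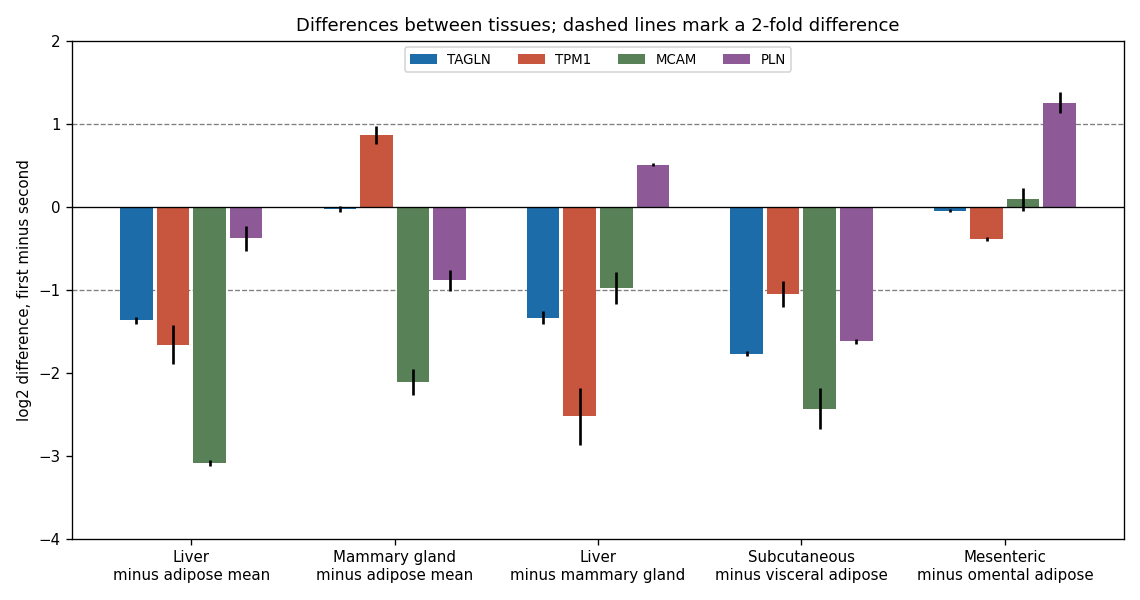
Difference in log2 level (vertical axis, first tissue minus second) of TAGLN, TPM1, MCAM and PLN in 5 comparisons. Bars are means of both dye orientations, black lines span the orientations and dashed lines mark 2-fold; all 4 bars lie below -1 in subcutaneous against visceral adipose, and PLN alone lies above 1 in mesenteric against omental adipose.

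**Figure D3:**
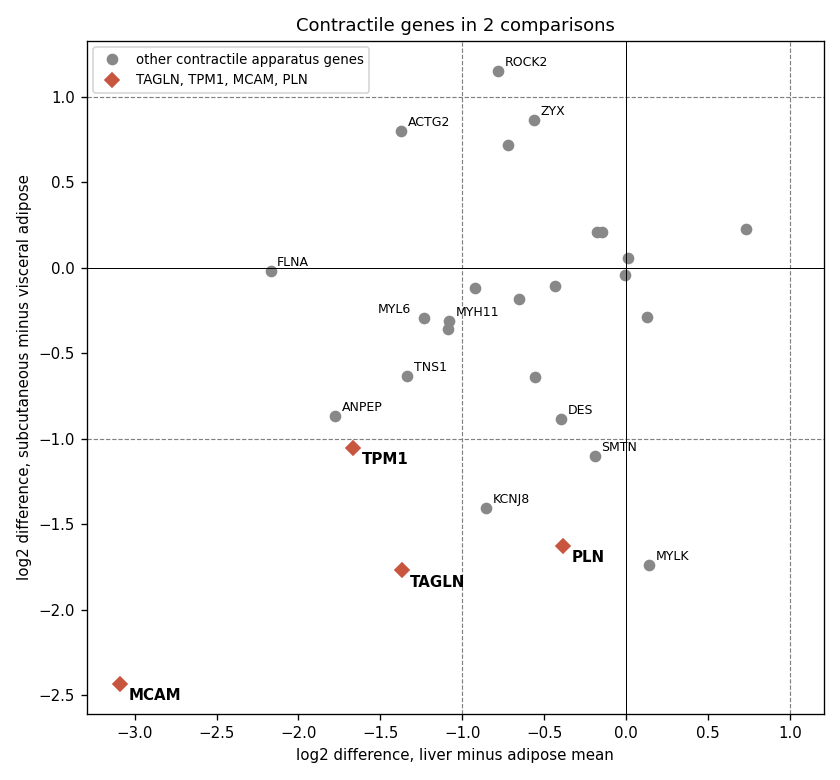
Differences in log2 level of 24 other contractile genes (grey circles) and of TAGLN, TPM1, MCAM and PLN (red diamonds), with liver minus adipose mean on the horizontal axis and subcutaneous minus visceral adipose on the vertical axis. Dashed lines mark 2-fold; MCAM lies lowest on both axes, FLNA is low in liver but near 0 (-0.02) between the depots, and MYLK is near 0 in liver (0.14) but low in subcutaneous fat.

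The relatives of TPM1 and TAGLN on the array differed among themselves between the fat depots. Spotted cDNA can bind transcripts of related genes, and how far it did so here was not tested. TPM1, on plate 13, had subcutaneous minus visceral differences of -0.89 on the Cy3 arrays and -1.21 on the Cy5 arrays. TPM3, a tropomyosin of many non-muscle cells, was higher in subcutaneous fat on the clones of plates 18 (1.49 ± 0.10) and 20 (1.19 ± 0.01). Its other clone, on plate 10, gave -0.58 ± 0.37 and read 0.34 on the Cy3 array against -3.09 on the Cy5 array in liver, so its dye orientations disagreed. TPM4, another non-muscle tropomyosin, differed by 0.35 ± 0.03 between subcutaneous and visceral fat.

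In liver against adipose tissue TPM1 differed by -1.67 ± 0.23 and TPM4 by -1.77 ± 0.06, both past the rule, and the TPM3 clones on plates 18 and 20 did not pass there (-0.59 ± 0.07 and -0.75 ± 0.29). In mammary gland against adipose tissue TPM1 (0.86 ± 0.11) and TPM4 (-0.78 ± 0.0053) lay on opposite sides of 0. TPM2, a tropomyosin of smooth and slow skeletal muscle, was lower in subcutaneous than in visceral fat as the mean of its 2 clones (-1.45 ± 0.07), in the direction of TPM1, and was not past the rule without centring (-0.82). Its clone on plate 8 gave -0.34 ± 0.16 there and its clone on plate 20 gave -2.55 ± 0.29, negative in both orientations, so the size of the TPM2 difference was not settled. As the mean of its clones TPM2 was also past the rule in liver against adipose tissue (-1.05 ± 0.18, but -0.86 under quantile normalisation). The same held in liver against mammary gland (-1.38 ± 0.69). In these comparisons its clone on plate 8 did not pass (-0.39 ± 0.07 and -0.35 ± 0.09). Both calls rested on its clone on plate 20 (-1.72 ± 0.43 and -2.42 ± 1.30). The plate 20 clone of TPM2 read 2.94 on the Cy3 array and -1.23 on the Cy5 array of mammary gland. Where TAGLN differed by -1.77 ± 0.03 between subcutaneous and visceral fat, TAGLN2, a related transgelin that is not restricted to muscle, differed by 0.21 ± 0.05, and TAGLN2 passed in no comparison.

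**Figure D4:**
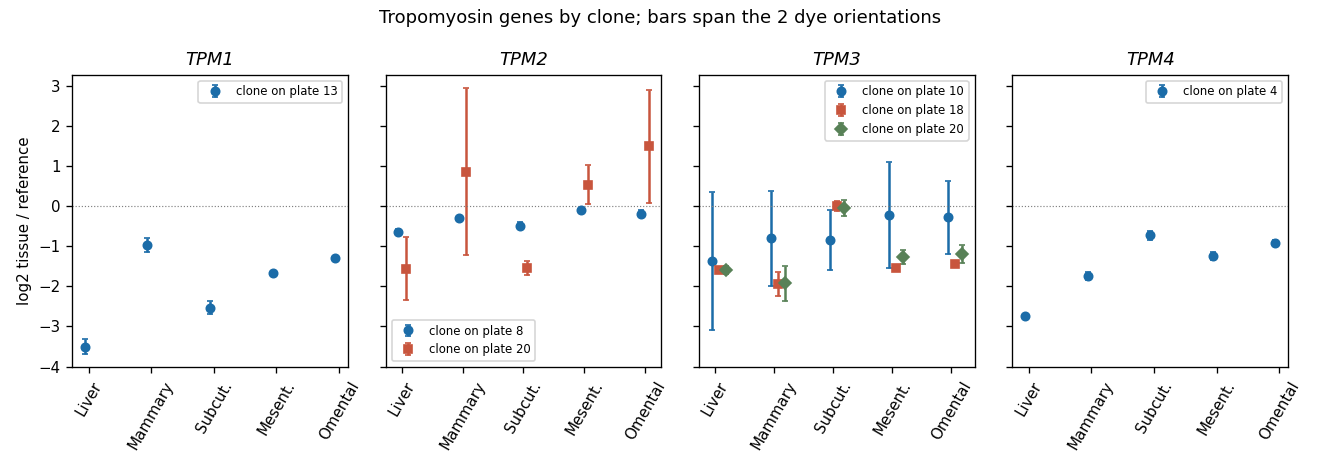
Level of TPM1, TPM2, TPM3 and TPM4 by clone (vertical axis, log2 ratio of tissue to reference) in 5 tissues; points are means of the 2 dye orientations and bars span both. TPM1 and TPM4 have short bars, the TPM3 clones on plates 18 and 20 are highest in subcutaneous adipose (0.0023 and -0.05), and the bars of the TPM2 clone on plate 20 and of the TPM3 clone on plate 10 are wide.

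Around PLN, 10 of 34 genes that fill, empty or regulate the calcium store were measured. None of them passed between mesenteric and omental fat, where 0.829% of 4340 genes passed upward and 0.576% downward. ORAI1 alone passed between subcutaneous and visceral fat, where 6.23% of 4332 genes passed upward and 3.72% downward. Both counts lie near the shares over all genes. PLN differed by -1.63 ± 0.03 between subcutaneous and visceral fat and by 1.25 ± 0.13 between mesenteric and omental fat, against 0.21 ± 0.09 and 0.08 ± 0.18 for ATP2A3, a pump of the same family as the one that phospholamban restrains. ORAI1, the plasma membrane channel that refills the store, was higher in subcutaneous fat (1.98 ± 0.09) and lower in liver than in mammary gland (-1.59 ± 0.43). STIM1, the store's calcium sensor, was higher in liver than in mammary gland (1.45 ± 0.20) and than in adipose tissue (1.06 ± 0.01), the last of these not past the rule without centring (0.81) or under quantile normalisation (0.94). The list's median difference between subcutaneous and visceral fat was 0.28.

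The members resembled each other unevenly. Over the 10 arrays, which come from 5 RNA samples, Pearson's r was 0.84 between TAGLN and MCAM, 0.83 between TAGLN and TPM1, 0.70 between MCAM and PLN, 0.60 between TAGLN and PLN, 0.56 between TPM1 and MCAM and 0.14 between TPM1 and PLN. These values describe arrays that share their tissue in pairs.

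Among 1417 genes with a spread of at least 1 over the tissues, the 5 closest to each member over the same 10 arrays were also listed. For TAGLN they were ENAH (r = 0.95), FBLN5, EIF2AK1, PTGDS and SH3BGR (0.94 each). For TPM1 they were YBX3 (0.97), TSPAN13 (0.95), TGFB2 and CIDEA (0.94 each) and SALL4 (0.89). For MCAM they were RPLP2, COL4A1 and LAMC1 (0.99 each) and DYNC1LI2 and CCSER2 (0.98 each). For PLN they were ARHGAP29 (0.95), PHF6 and DES (0.93 each) and CD209 and LIPE (0.92 each).

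No gene stood in more than 1 of these 4 sets. The sets were chosen by correlation over the same arrays, so similar differences were partly built in. Between subcutaneous and visceral fat MCAM differed by -2.43 ± 0.25. COL4A1, a collagen IV chain of the basement membrane, differed by -2.07, and LAMC1, a laminin chain, by -1.73. The rest of the MCAM set differed by -0.67 (RPLP2), -0.75 (DYNC1LI2) and -1.03 (CCSER2). Between mesenteric and omental fat MCAM differed by 0.09 ± 0.14, COL4A1 by -0.41 and LAMC1 by -0.28. RPLP2 differed there by 0.03, DYNC1LI2 by 0.07 and CCSER2 by 0.25. DES, which is also in the contractile list, had levels of 0.48 in liver, 0.14 in mammary gland, 0.29 in subcutaneous, 1.42 in mesenteric and 0.93 in omental adipose, with the top 3 places held by the same tissues as for PLN. PTGDS, a prostaglandin synthase, had the same sign as TAGLN between subcutaneous and visceral fat (-2.79). Between mesenteric and omental fat PTGDS differed by 1.11, where TAGLN was near 0 (-0.05 ± 0.02) and its clones did not share a sign.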

How the data were processed

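The deposited values are log2 ratios of the 2 dye channels per spot, in a table of the authors; per the series' design text, 20 ug of RNA was labelled through aminoallyl cDNA, hybridised for 2 days at 42 C to duplicate slides (4 spots per element), scanned in both channels and quantified with GenePix. Neither the labels nor the file header state how the ratios were normalised or which way they run, or name a genome build, and the log base was taken from the ceiling of 16.61, the log2 of 100000. The number of arrays limits the precision with regard to dye and array error only. With 1 RNA sample per tissue, the spread between animals was not measured.

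Values at that ceiling were taken as missing, ratios of Cy3-labelled tissue were negated going by the dye label, each array was centred on its median, and the 2 duplicate spots and then the elements of a gene were averaged. The annotation's order does not follow the table, so the print layout was searched (884736 pairings of 48 blocks of 171 elements with 16 blocks of 528 through 384-well plates) for agreement of clones of 1 gene, leaving out TAGLN, TPM1, MCAM and PLN; the best layout had a mean cosine of 0.46 over 1322 pairs, the next 0.13, and the IDs taken at face value -0.01. Plates 1 to 20 were kept. Of 5472 elements, 5467 matched a RefSeq symbol (ARS-UCD2.0 table, through Entrez IDs).

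With 1 RNA sample per tissue no test was possible; the size rule was a mean of at least 1 log2 unit with both orientations on 1 side of 0. Named genes were the 4 members in full, genes of the fixed lists, mainly those past the rule, and the 5 closest genes by correlation; genes named without passing the rule (for example DES and MYL9) were named after their values were seen. Members and lists were chosen with earlier results of these data known. Alternatives were no centring, quantile normalisation, each orientation alone, ceiling values kept, the median over elements, leaving out the omental Cy5 array or the subcutaneous sample and, added after seeing the data, the size rule on each orientation. Computations used Python 3.11.15, numpy 2.4.6 and pandas 2.3.3.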

Additional observations from a re-analysis of the deposited data

How the results depend on the processing

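Of 164 differences of TAGLN, TPM1, MCAM and PLN under the alternatives, 153 kept their call and 161 their sign; the 3 sign changes were in differences below the rule. Without centring, the members past the rule were 2 in subcutaneous against visceral adipose (4 with centring) and 0 in mesenteric against omental adipose (1 with centring), and all genes past it were 898 against 431 and 93 against 61. In mammary gland against adipose tissue the members past the rule were 3 under quantile normalisation, 2 with the subcutaneous sample left out and 1 to 2 when 1 dye orientation was left out, against 1. All genes past it in mesenteric against omental adipose were 102 to 108 when 1 orientation was left out, 137 without the omental Cy5 array and 29 where each orientation had to pass. That last rule, added after seeing the data, dropped TPM1 from subcutaneous against visceral adipose. Leaving out the omental Cy5 array changed no member's call. Ceiling values and the median over elements changed none either, but could not test the members. Each member has 1 or 2 elements, where median and mean are equal, and none of their spots was at the ceiling. These 2 settings gave 20 each of the 164 differences. Without centring, the share of higher genes among those past the rule was 34.8% in liver against adipose tissue (54.6% with centring), 50.2% in liver against mammary gland (67.8%), 95.5% in subcutaneous against visceral adipose (62.6%) and 20.4% in mesenteric against omental adipose (59.0%). Under quantile normalisation it was 41.3% in mammary gland against adipose tissue (30.0%). No paired analysis was possible because the labels give no replicate numbers and the 2 arrays of a tissue are a dye swap of 1 RNA sample. The dye error of the members reached 0.35 log2 units in these comparisons, and the spread between animals was not measured.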
